A study of Homo sapiens with 2 samples.

Results

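The HOX genes are 4 clusters of homeobox genes, and 38 of them were examined here for LDB1 peaks, out of 19974 protein-coding genes of the autosomes and X. The genes were chosen by name, and a peak was counted for a gene when its midpoint lay in the gene or within 10 kb of either end. The peaks came from 1 CUT&Tag library, which maps a chromatin protein by directing a transposase to it with an antibody and sequencing the fragments released. The cells were untreated NB4 cells, an established human line of acute promyelocytic leukaemia. The antibody was against LDB1, and a second library of the same untreated cells, made with a non-specific IgG, was not analysed here. Nothing in the peak list can check the identity of the cells, since it holds positions and widths only. With 1 LDB1 library no value has a replicate check, so the values are given as descriptions, without p-values. All positions are hg38, counted from 1.

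HOX genes encode homeodomain transcription factors that give cells their place along the head-to-tail axis. They lie in clusters in the order in which they are used. Members at the same rank in different clusters form a paralogue group, numbered from 1 for the genes used at the front of the body to 13 for those used at the rear. In blood, stem and progenitor cells use genes of the HOXA and HOXB clusters, which are turned down as cells mature, and HOXA9 is a known driver of acute myeloid leukaemia. Retinoic acid, the agent that makes NB4 cells differentiate, is a classical inducer of the low-numbered groups. LDB1 does not itself bind DNA. It pairs with itself and holds together complexes of LMO adaptors with GATA factors and E-box binding proteins.

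LDB1 peaks were dense over the HOXA and HOXD clusters and sparser over HOXB and HOXC. Of the 38 genes, 36 (94.7%) had a peak in or within 10 kb, where 70.1% of all protein-coding genes did, and 65.7% of those no longer than the longest HOX gene (45574 bp). A peak midpoint lay within 1 kb of an end of 26 of the 38 (68.4%), against 37.6% of all protein-coding genes and 36.9% of those no longer than the longest HOX gene. The median was 4.5 peaks per HOX gene, with a range from 0 to 14, and 1 peak over all protein-coding genes. There were 5 or more peaks at 19 of the 38 genes (50%), a limit chosen after the values were seen. The shares were 17.1% of all protein-coding genes and 14.8% of those no longer than the longest HOX gene. HOX genes stand close together, so these counts are not independent. The 185 pairs of a gene and a peak came from 87 distinct peaks, 58 of which counted for at least 2 genes and some for 4. When each peak was given to its nearest protein-coding gene, the median fell to 2 peaks per HOX gene and stayed at 1 over all genes, and 31 of 38 HOX genes kept a peak against 61.1% of all genes. The 2 HOX genes without a peak within 10 kb were neighbours, HOXC8 and HOXC9.

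Most of the HOX genes with a listed transcription start inside a peak belong to the HOXA and HOXD clusters. RefSeq (GRCh38.p14) listed a promoter sequence for 20 of the 38 genes, with 27 entries. HOXC4 and HOXC5 share one start, which leaves 26 distinct starts. Of these, 10, from 9 genes, lay inside a peak. The share of starts inside a peak over all protein-coding genes was 20.1%, and 23.8% of genes with a listed start had at least 1 inside a peak. The 9 genes were HOXA3, HOXA7, HOXA10, HOXB1, HOXD1, HOXD3, HOXD11, HOXD12 and HOXD13. HOXA3 had 7 listed starts and 2 of them lay in peaks, and HOXA10 had 2 with 1 in a peak. Only 1 HOXB gene and 2 HOXC genes had a listed start, so the clusters cannot be compared by this measure. Below are the 250 bases before the start for 6 of the starts inside a peak, shown because an LDB1 peak covered the start. All 250 lay in the peak for HOXA3, HOXD11 and HOXD13, but only 147 for HOXA7, 177 for HOXB1 and 186 for HOXD3. Marked words can thus lie outside the peak, as do the upstream E-box of HOXA7 and most of the HOXB1 E-box. The 6 starts were picked after the matches were seen. The first 5 hold a word of those searched and the last, of HOXD13, holds none, whereas 4 of the 10 starts inside a peak hold none. Capitals mark words that LDB1 partners or HOX proteins are known to bind.
HOXA3, chr7:27113843-27114092, strand -: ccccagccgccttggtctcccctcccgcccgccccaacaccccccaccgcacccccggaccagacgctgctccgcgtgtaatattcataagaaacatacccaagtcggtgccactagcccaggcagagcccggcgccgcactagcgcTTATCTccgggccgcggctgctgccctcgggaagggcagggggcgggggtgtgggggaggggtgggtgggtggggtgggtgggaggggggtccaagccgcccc
HOXA7, chr7:27156676-27156925, strand -: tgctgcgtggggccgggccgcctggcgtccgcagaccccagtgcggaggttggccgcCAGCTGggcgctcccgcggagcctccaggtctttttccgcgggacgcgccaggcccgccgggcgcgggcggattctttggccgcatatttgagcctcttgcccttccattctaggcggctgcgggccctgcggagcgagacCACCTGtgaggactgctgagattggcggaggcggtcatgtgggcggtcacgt
HOXB1, chr17:48531012-48531261, strand -: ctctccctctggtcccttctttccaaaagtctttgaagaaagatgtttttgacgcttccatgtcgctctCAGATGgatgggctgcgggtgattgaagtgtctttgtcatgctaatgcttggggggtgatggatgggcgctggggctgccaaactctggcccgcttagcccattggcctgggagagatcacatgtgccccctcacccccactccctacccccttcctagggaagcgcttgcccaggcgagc
HOXD3, chr2:176157057-176157306, strand +: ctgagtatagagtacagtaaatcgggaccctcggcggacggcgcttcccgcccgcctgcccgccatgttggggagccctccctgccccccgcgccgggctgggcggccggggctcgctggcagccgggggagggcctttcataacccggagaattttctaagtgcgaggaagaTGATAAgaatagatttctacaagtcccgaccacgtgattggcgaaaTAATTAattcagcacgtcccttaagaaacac
HOXD11, chr2:176107030-176107279, strand +: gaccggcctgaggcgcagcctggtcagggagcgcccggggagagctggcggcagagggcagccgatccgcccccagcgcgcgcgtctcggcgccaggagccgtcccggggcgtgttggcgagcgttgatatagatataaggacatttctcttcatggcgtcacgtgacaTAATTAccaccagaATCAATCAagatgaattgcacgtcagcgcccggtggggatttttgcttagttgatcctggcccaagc
HOXD13, chr2:176092471-176092720, strand +: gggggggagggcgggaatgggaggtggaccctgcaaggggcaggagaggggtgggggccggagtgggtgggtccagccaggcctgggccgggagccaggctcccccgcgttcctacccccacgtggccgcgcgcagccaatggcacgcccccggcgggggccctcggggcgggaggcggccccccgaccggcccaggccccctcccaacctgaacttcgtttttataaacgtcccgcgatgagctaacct

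For contrast, these are the same 250 bases of starts outside peaks, for HOXA9 and for the start that RefSeq gives to both HOXC4 and HOXC5.
HOXA9, chr7:27165538-27165787, strand -: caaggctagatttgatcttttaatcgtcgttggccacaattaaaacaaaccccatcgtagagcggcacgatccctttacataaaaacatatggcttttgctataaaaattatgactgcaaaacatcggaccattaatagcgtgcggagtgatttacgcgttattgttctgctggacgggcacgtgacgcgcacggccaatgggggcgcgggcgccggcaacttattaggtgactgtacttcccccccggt
HOXC4, chr12:54016638-54016887, strand +: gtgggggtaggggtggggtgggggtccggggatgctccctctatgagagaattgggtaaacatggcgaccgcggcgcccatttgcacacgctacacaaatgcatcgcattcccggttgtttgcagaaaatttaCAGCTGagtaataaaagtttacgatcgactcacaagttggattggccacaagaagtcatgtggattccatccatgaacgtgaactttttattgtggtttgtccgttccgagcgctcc

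The words were searched on both strands in the 250 bases before each start. They were the GATA words (AGATAA or AGATAG, and TGATAA or TGATAG), the E-box CAGNTG, the homeodomain word TAATTA, the PBX-HOX word TGATTNAT and the nuclear receptor word AGGTCA. In the sequences printed no matches overlap. A GATA word stood before 5 of the 26 distinct HOX starts (17.8% of all 22132 promoters of protein-coding genes hold one) and an E-box before 5 (40.2%). TAATTA stood before 2 (3.16%), TGATTNAT before 2 (1.82%) and AGGTCA before none (10.5%). At least 1 word stood before 6 of the 10 starts inside a peak and before 6 of the 16 outside. These counts sort by the start and not by where the word lies. HOXD12 counts as inside with 66 of its 250 bases in a peak, and its GATA word lay outside that peak. HOXD10 and HOXA13 count as outside with 92 and 36 bases in a peak. The counts therefore do not compare sequence in peaks with sequence outside them. The HOXD11 sequence holds both TAATTA and the PBX-HOX word, and its start lay 17 bp from the midpoint of a peak of 1473 bp. HOXA3 holds a GATA word before the start printed, which lay 52 bp from the midpoint of a peak of 891 bp. HOXD3 holds a GATA word and TAATTA, HOXA7 holds 2 E-boxes and HOXB1 holds 1 E-box. A match says only that these letters are there, and the HOXC4 and HOXC5 start outside peaks holds an E-box too. From 250 bases before to 50 bases after the start, the median CpG count was 25 at the HOX starts inside peaks and 18 at the 16 outside. Over all protein-coding promoters the medians were 27 inside and 18 outside, and 28.1% of promoters with at least 22 CpG, the median of the 27 HOX entries, had the start inside a peak. Over all promoters CpG content thus moved with the presence of a peak. The HOX medians went the same way, but they count starts and not genes. HOXA3 alone gave 7 starts, and those outside peaks had 15, 29, 7, 0 and 6 CpG. The HOX medians were not recounted without them, and the part of CpG content in the HOX counts was not tested.

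**Figure D1:**
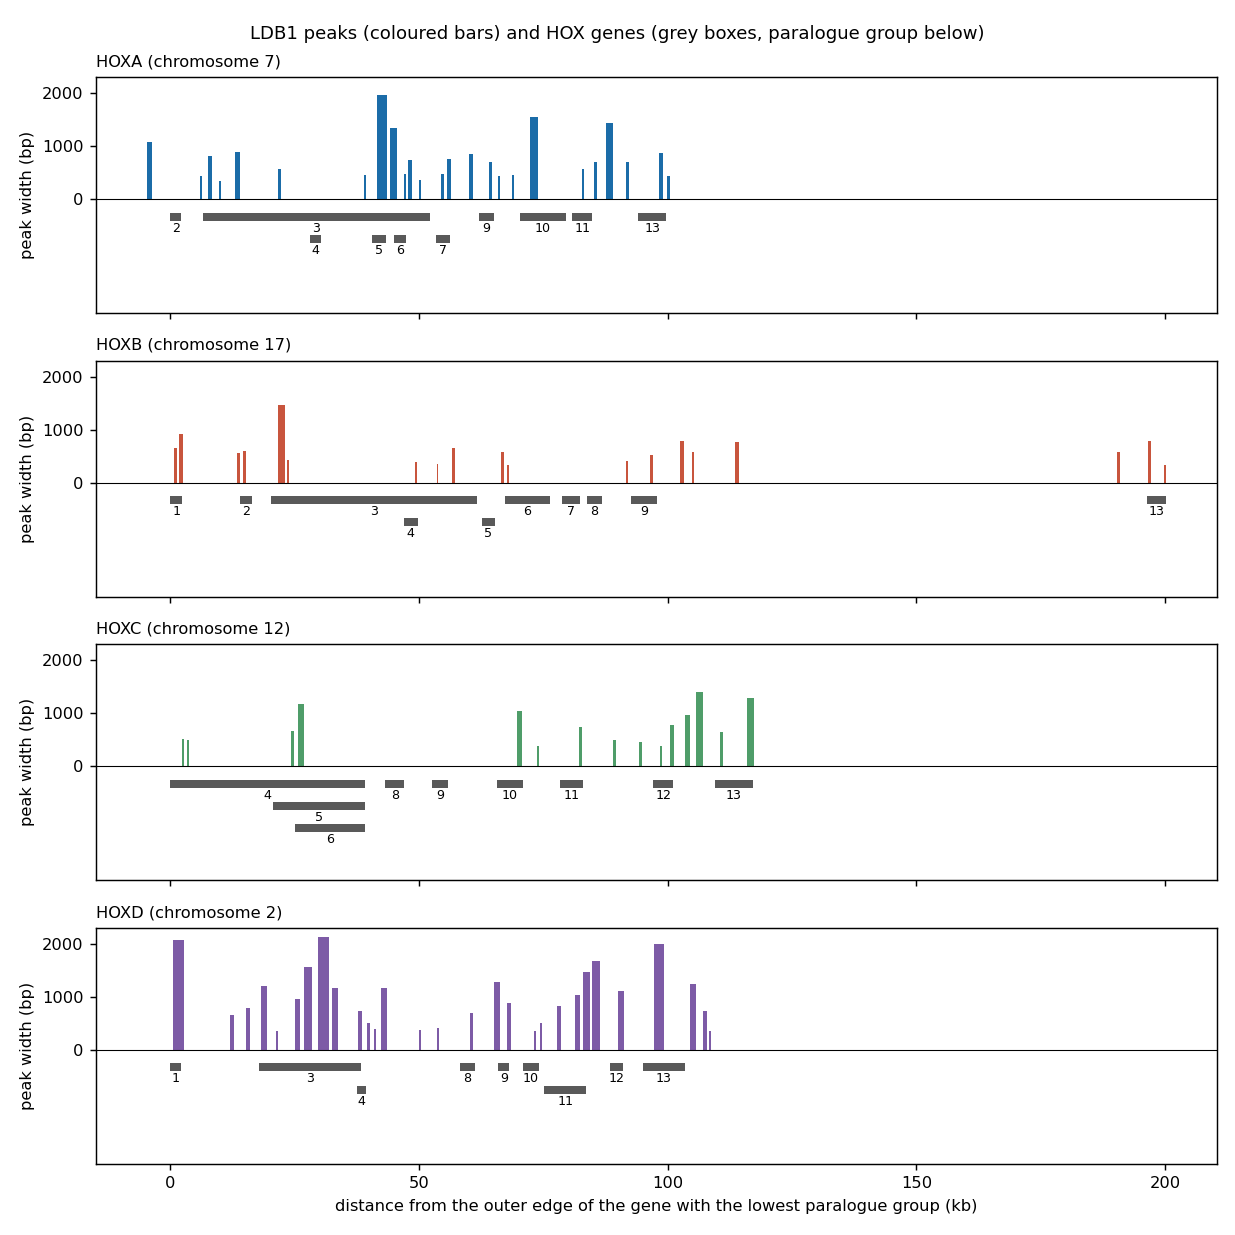
Width of each LDB1 peak (bp, coloured bars) against its distance (kb) from the outer edge of the analysed gene with the lowest paralogue group, for each HOX cluster. Grey boxes are the genes with their paralogue group below. Peaks run almost without a break through HOXD, while HOXB and HOXC hold gaps of up to 76.1 and 42.7 kb.

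The HOXA cluster, on chromosome 7, held 25 distinct peaks in 120 kb (27090354 to 27210091), a rate of 20.9 per 100 kb. Over consecutive windows of 100 kb, 0.607% held as many, and 4.71% of the 806 windows that touch at least 5 protein-coding genes did. All 10 HOXA genes analysed had a peak within 10 kb, with a median of 6.5, and 7 of them had one at a gene end. The 1 Mb to either side held 1.6 peaks per 100 kb, so that the cluster was 13-fold denser than its surroundings. Within the cluster, 19 of the peaks formed an unbroken chain of 61.4 kb (neighbours 10 kb or less apart) from the HOXA5 region to HOXA13. It ranked 134th by number of peaks among 25958 such chains and single peaks.

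HOXA9 had 7 peaks and HOXA10, its neighbour and also active in leukaemic progenitors, had 8. The peak inside HOXA9 was 694 bp wide (27164444 to 27165137), and another of 432 bp had its midpoint within 1 kb of the start, outside the gene (27166313 to 27166744). The start of HOXA9 was between them, in no peak, 747 bp from the nearer midpoint. HOXA10 held a single peak within its body, of 1557 bp (27172795 to 27174351), and it covered the inner of the 2 listed starts but not the outer one. That peak was the widest counted for HOXA9, HOXA10 and HOXA11 alike. Of the 7 peaks of HOXA9, 5 were also counted for HOXA10.

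The widest peak of the cluster was 1955 bp wide (27142001 to 27143955), inside HOXA5, a gene of lung and neck development, and it took in one end of that gene. HOXA5 had 6 peaks and 63.9% of its body in peaks, the highest share in the cluster. HOXA6 had 8 peaks, 3 of them at its ends, and 44.3% of its body in peaks. HOXA7 had 9 peaks, and a peak of 754 bp covered its start. These 3 genes stand next to each other and share peaks. HOXA3, needed for the thymus and parathyroid glands, had 14 peaks, the most of any HOX gene. Its gene model is 45574 bp long and spans HOXA4, HOXA5 and HOXA6, so its count includes theirs.

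The other HOXA genes had fewer. HOXA13, a gene of hands, feet and the urogenital tract, had 5 peaks, and HOXA11, a gene of the forearm and uterus, had 5. HOXA2, a patterning gene of the hindbrain, had 4 peaks and none in its body, with the nearest midpoint 3.92 kb away. HOXA4 had 2 peaks of 447 and 563 bp, none in its body and none nearer than 6.08 kb. HOXA4 lay whole within a stretch of 16.6 kb without a peak, the longest in HOXA.

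The HOXD cluster, on chromosome 2, was the densest and had the widest peaks. It held 29 peaks in 123 kb (176077487 to 176200907), or 23.5 per 100 kb, a rate reached by 0.36% of all 100 kb windows and by 2.61% of the gene-dense ones. The surrounding 2 stretches of 1 Mb held 11 and 13 peaks, 1.2 per 100 kb, so that the cluster was 19.6-fold denser. Peaks covered 23.2% of the cluster, against 16.2% of HOXA, 8.32% of HOXC and 5.29% of HOXB. All 9 HOXD genes had a peak within 10 kb (median 6) and 8 had one at a gene end. A chain of 31 peaks over 123 kb, which touched all 9 genes and ran past the cluster beyond HOXD13, ranked 43rd among the 25958. The longest stretch without a peak was 9.35 kb, next to HOXD1.

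HOXD3, of neck and skull base development, had 12 peaks, 7 of them in its body, and 38.8% of its body lay in peaks. They included the widest of all HOX peaks, 2126 bp (176158990 to 176161115), beside others of 1570 bp (176162401 to 176163970) and 1204 bp (176171384 to 176172587). HOXD11, of the forearm, had 9 peaks, and a peak of 1680 bp (176104395 to 176106074) lay between it and HOXD12, beside the peak over the HOXD11 start. HOXD10 and HOXD4 had 7 peaks each, HOXD9 had 6, and HOXD8 and HOXD12 had 5 each. HOXD13, of fingers and toes, had 6 peaks, and a peak of 1992 bp (176091597 to 176093588) covered its listed start 129 bp from the midpoint. HOXD1 stood alone at the other end with a single peak. That peak was 2075 bp wide (176188127 to 176190201), took in its start and covered 68.5% of the gene, the highest share of any HOX gene. HOXD1 thus had among the fewest peaks and among the widest.

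The HOXC cluster, on chromosome 12, was split. It held 15 peaks in 137 kb (53928831 to 54066030), or 10.9 per 100 kb, which 3.51% of all windows and 28% of the gene-dense windows reached. Its rate was 3.22-fold that of its surroundings (3.4 per 100 kb). A chain of 11 peaks over 47.6 kb covered the high-numbered end, from HOXC13 to HOXC10. HOXC12 had 7 peaks, HOXC13, the gene of hair and nails, had 5, HOXC11 had 4 and HOXC10 had 2. The widest of this chain were 1404 bp between HOXC13 and HOXC12 (53949023 to 53950426) and 1295 bp over an end of HOXC13 (53938768 to 53940062). Next in the chain came 1047 bp in HOXC10 (53985342 to 53986388).

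Beyond HOXC10 a stretch of 42.7 kb (53986389 to 54029063) held no peak. HOXC8 and HOXC9 lay whole within it, and the nearest peak midpoints were 16.9 and 14.3 kb from them. At a distance of 20 kb both were counted, as were all 38 HOX genes and 76.5% of all protein-coding genes. At the low-numbered end, HOXC4, HOXC5 and HOXC6 had 4, 2 and 2 peaks. Their gene models overlap and begin at one shared position, so both peaks of HOXC5 and HOXC6 are also among the 4 of HOXC4. The wider of the shared peaks was 1165 bp (54029064 to 54030228), and their shared start lay 12758 bp from the nearest midpoint.

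The HOXB cluster, on chromosome 17, had the narrowest peaks and, with HOXB13 included, the lowest rate. It held 19 peaks in 220 kb (48518526 to 48738750), or 8.63 per 100 kb, which 4.99% of all windows and 36.2% of the gene-dense windows reached. The rate was 2.36-fold that of its surroundings, which held 3.65 per 100 kb. Whole chromosomes held 2.73 peaks per 100 kb for HOXA, 1.82 for HOXD, 1.63 for HOXC and 3.22 for HOXB. The surroundings of HOXA and HOXD were thus sparser than their chromosomes and those of HOXB and HOXC denser, which bears on the fold values of all 4 clusters. HOXB13 lies far from the others, and a stretch of 76.1 kb before it held no peak. From HOXB1 to HOXB9 alone, a choice made after the data were seen, the rate was 12.7 per 100 kb, above the 10.9 of HOXC. It was reached by 2.55% of all windows and by 20.8% of the gene-dense ones. All 10 HOXB genes had a peak within 10 kb, with a median of 3, and 6 had one at a gene end.

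HOXB3 had 9 peaks, the most in HOXB, over a gene model of 41372 bp that spans HOXB4. It held the widest peak of the cluster, 1464 bp (48550229 to 48551692), and 25.3 kb of the gene model further on held no peak. HOXB4, known for its power to expand blood stem cells, had 3 peaks of 349, 388 and 653 bp, and the one of 388 bp lay at a gene end (48577828 to 48578215). HOXB1 and HOXB2, patterning genes of the hindbrain, had 2 and 4 peaks, and 55.8% of HOXB1 lay in peaks, the highest share in HOXB. HOXB5 had 4 peaks, none in its body, and HOXB6 had 2, both at a gene end. HOXB7 and HOXB8 lay whole in a stretch of 23.5 kb without a peak. The only peak counted for them was a shared one of 405 bp (48620099 to 48620503), 9.28 and 5.01 kb away. HOXB8 is known for its power to immortalise myeloid progenitors. HOXB9 had 4 peaks and HOXB13, the prostate gene of the family, had 3.

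**Figure D2:**
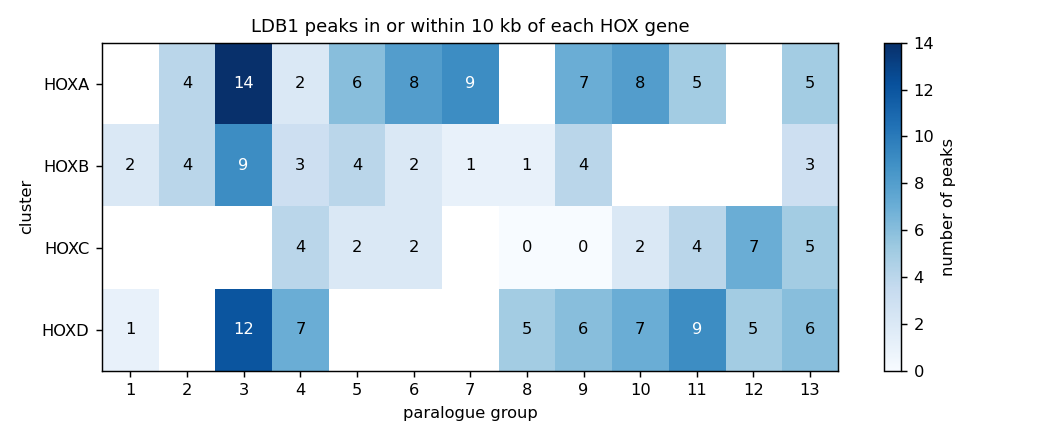
Number of LDB1 peaks in or within 10 kb of each HOX gene (cell number and colour), by cluster (rows) and paralogue group (columns); blank cells hold no gene analysed. The highest counts stand in group 3 of HOXA (14) and HOXD (12), and both zeros are in HOXC.

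Counts differed between clusters in most paralogue groups. Group 3 had the highest counts, 14, 9 and 12 for HOXA3, HOXB3 and HOXD3, which are also long gene models. Group 9 ranged from 0 at HOXC9 through 4 at HOXB9 and 6 at HOXD9 to 7 at HOXA9. Group 8 ranged from 0 at HOXC8 and 1 at HOXB8 to 5 at HOXD8, and group 7 from 1 at HOXB7 to 9 at HOXA7. Group 13 was more even, with 5, 3, 5 and 6 peaks in HOXA, HOXB, HOXC and HOXD. Group 1 had few, with 2 at HOXB1 and 1 at HOXD1. By position, the 16 genes of groups 9 to 13 had a median of 5 peaks and 13 of them had one at a gene end. The 15 genes of groups 4 to 8 had a median of 3, and 8 of them had one at a gene end. The 7 genes of groups 1 to 3 had a median of 4, with 5 at a gene end. The order was not shared by the clusters. In HOXA the median was 9 in groups 1 to 3, 7 in groups 4 to 8 and 6 in groups 9 to 13. In HOXB these medians were 4, 2 and 3.5, and in HOXD 6.5, 6 and 6. HOXC has no gene of groups 1 to 3, and its medians were 2 in groups 4 to 8 and 4 in groups 9 to 13. Groups 1 to 3 thus had the highest median in each cluster that holds them, from only 2 or 3 genes per cluster, 1 of them a long group 3 gene model. In HOXA these were HOXA2 (4) and HOXA3 (14), and in HOXD they were HOXD1 (1) and HOXD3 (12). By the median share of the gene body in peaks, groups 1 to 3 were highest in HOXB and HOXD but lowest in HOXA. There the share was 8.65%, against 40.5% in groups 4 to 8 and 16% in groups 9 to 13. The part of gene length was not tested.

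**Figure D3:**
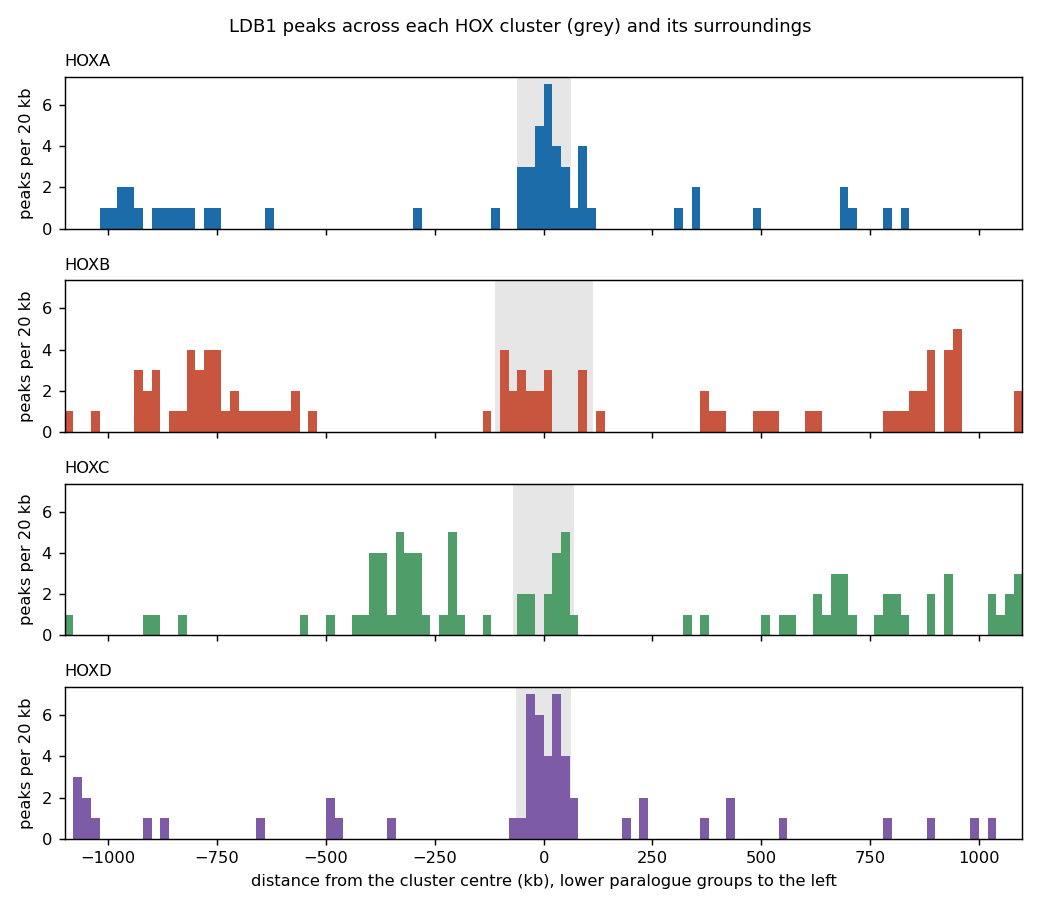
LDB1 peaks per 20 kb against the distance (kb) from the centre of each HOX cluster, with lower paralogue groups to the left and the cluster with its 10 kb margins in grey. HOXA and HOXD stand out from sparse surroundings (1.6 and 1.2 peaks per 100 kb), whereas peaks also gather in the surroundings of HOXB and HOXC (3.65 and 3.4).

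HOX peaks were wider than peaks elsewhere, mainly in HOXD. The 88 peaks of the 4 cluster spans had a median width of 696 bp (range 335 to 2126 bp), against 550 bp over all 52765 peaks on chromosomes 1 to 22 and X. Of the 88, 32 (36.4%) were among the widest 25% of all peaks. By cluster these were 16 of 29 in HOXD (55.2%), 9 of 25 in HOXA, 5 of 15 in HOXC and 2 of 19 in HOXB. The median width was 884 bp in HOXD, 696 bp in HOXA, 674 bp in HOXC and 573 bp in HOXB, where the surroundings had 674, 529, 568 and 515 bp. Over all peaks, those at a protein-coding gene end were wider (median 635 bp) than the others (537 bp). In the HOX clusters the 34 peaks at a HOX gene end had a median of 701.5 bp and the 54 elsewhere one of 677 bp. Of the HOX gene-end peaks 29.4% were among the widest 25%, fewer than the 34% of all gene-end peaks, whereas elsewhere the shares were 40.7% and 23.4%. Gene ends here are the outer limits of the gene models, so peaks over listed starts further in count as elsewhere. These were 1992 bp wide at HOXD13, 1557 bp at HOXA10, 1167 bp at HOXD3, and 891 and 563 bp at HOXA3. The gene-end widths therefore do not describe all peaks at starts. The upper quartile of HOX gene-end peaks was 908 bp and that of all gene-end peaks 963 bp. By place, 34 of the 88 peaks (38.6%) lay at a HOX gene end, 30 in the rest of a gene body and 24 between genes. No HOX peak came near the widest of the list, 14368 bp.

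**Figure D4:**
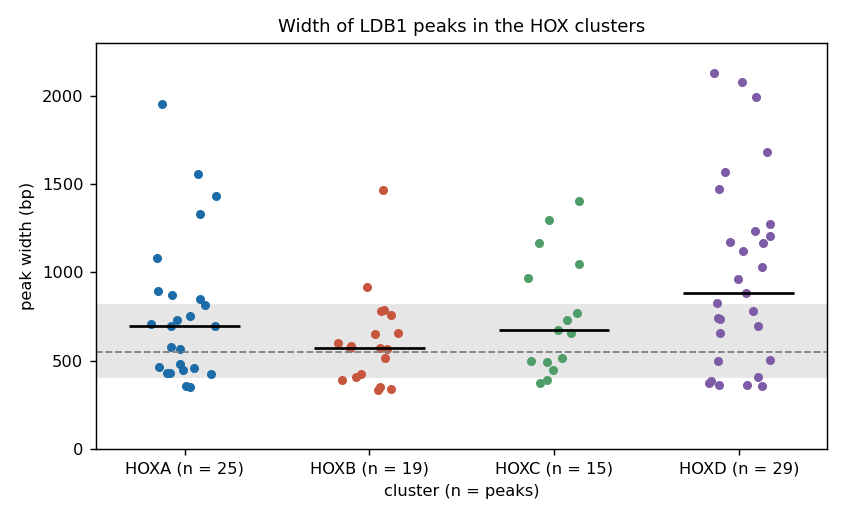
Width (bp) of every LDB1 peak in each HOX cluster (points), with the cluster's median (black line); the dashed line and grey band are the median (550 bp) and quartiles (408 and 816 bp) of all peaks. The HOXD median of 884 bp lies above the band, and those of the other clusters lie within it.

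The RNA genes of the clusters shared the peaks of their neighbours. Of 24 such genes listed, 23 (95.8%) had a peak within 10 kb, with a median of 4, and 15 (62.5%) had one at an end. Over all protein-coding genes the shares were 70.1% and 37.6%, and no such share was counted over all RNA genes. HOXA-AS3, antisense to HOXA5, HOXA6 and HOXA7, had 10 peaks, the microRNA gene MIR10B had 7 and HAGLR, antisense beside HOXD1, had 6. HOXC-AS1 had none and lies in the gap around HOXC9. The peaks carry no strand, so a sense gene and its antisense partner cannot be told apart. Of the 6 microRNA genes only MIR196B, beside HOXA9, lay within a peak, one of 457 bp that held its whole hairpin (27169114 to 27169570). Over all microRNA genes 9.79% had a peak over the hairpin. The nearest peak to the others was 0.359 kb from MIR10B, 0.763 kb from MIR196A1, 1.62 kb from MIR10A, 2.17 kb from MIR615 and 5.35 kb from MIR196A2. MIR196B, MIR196A1 and MIR196A2 make microRNAs of 1 seed, known to target HOX transcripts, and MIR10A makes one of another seed. Their mature sequences from RefSeq are shown because they group the HOX microRNAs across clusters, with the seed (bases 2 to 8) in capitals.
hsa-miR-196b-5p from MIR196B, chr7:27169528-27169549, strand -: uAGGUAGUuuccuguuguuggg
hsa-miR-196a-5p from MIR196A1, chr17:48632532-48632553, strand -: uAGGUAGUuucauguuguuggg
hsa-miR-10a-5p from MIR10A, chr17:48579904-48579926, strand -: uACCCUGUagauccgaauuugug

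Homeobox genes outside the clusters carried LDB1 peaks about as often as the HOX genes. Of 40 other genes of the same ANTP class, 39 (97.5%) had a peak within 10 kb and 29 (72.5%) had one at a gene end, with a median of 4. The list holds EVX1 and EVX2, neighbours of the HOX clusters, and without them, a count added after the data were seen, 37 of 38 (97.4%) had a peak and 27 (71.1%) one at a gene end. EN2 and EN1 had 9 peaks each and DLX2 had 8, while MSX2 had none. Of the 6 ParaHOX genes, the sister family of HOX, 5 (83.3%) had a peak within 10 kb, with a median of 1. A peak lay at a gene end of 4 of the 6 (66.7%). CDX1 had 4 peaks, GSX2 had 2, GSX1 had 1 and CDX4 had none. The neighbours of the HOX clusters were nearer to the background. Of the 16 nearest protein-coding genes outside the clusters, 12 (75%) had a peak, with a median of 1. Those with most were EVX2 and EVX1, homeobox genes beside HOXD13 and HOXA13, with 5 peaks each. EVX2 lies 3.52 kb from HOXD13, and 4 of its 5 peaks were also counted for HOXD genes. SNX10 had 4, and CALCOCO1, CALCOCO2 and MTX2 had none.

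Genes for HOX partners and regulators mostly lay between the HOX genes and all protein-coding genes. Of 9 TALE homeobox genes, whose proteins bind DNA together with HOX proteins, 7 (77.8%) had a peak within 10 kb (median 3), 4 (44.4%) had 5 or more and none had one at a gene end. MEIS3 and PKNOX2 had 8 each and PBX4 had 5, while MEIS2 and PBX2 had none. Of 16 genes of the MLL complex and other HOX activators, 13 (81.2%) had a peak (median 3.5) and 9 (56.2%) had one at a gene end. DOT1L had 21 peaks, MLLT1 had 10 and MLLT10 had 5, and MLLT3, PSIP1 and RBBP5 had none. Of 19 Polycomb genes, whose proteins keep HOX genes silent, 16 (84.2%) had a peak (median 2). A peak lay at a gene end of 6 (31.6%), near the 37.6% of all protein-coding genes. JARID2, a long gene, had 16, EZH1 had 10 and CBX8 had 5, and BAP1, RING1 and SUZ12 had none. PBX2 and RING1 lie in a region of chromosome 6 with alternate copies in hg38, so their absence is uncertain.

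**Figure D5:**
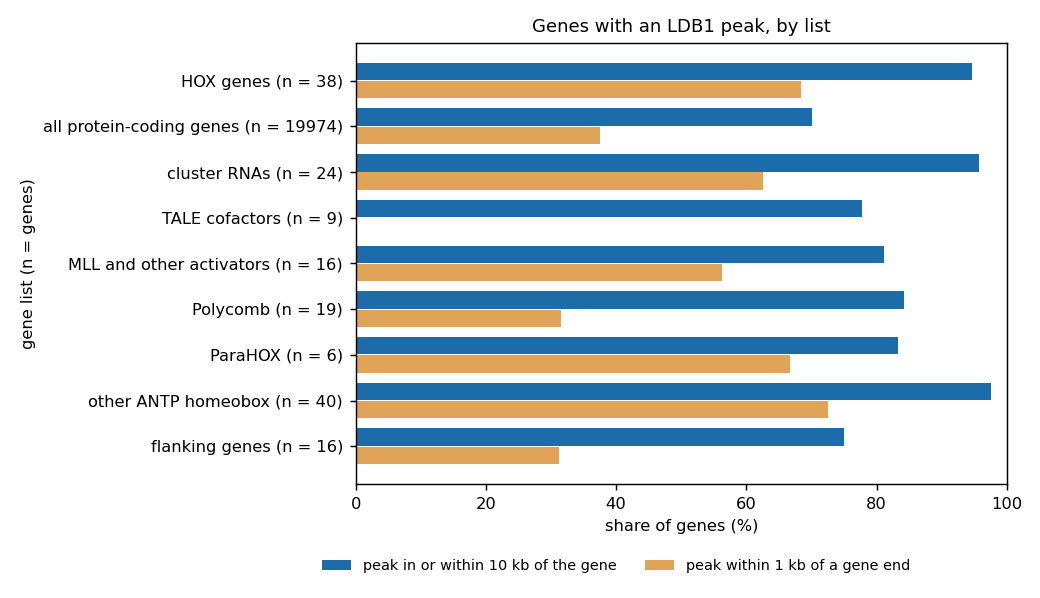
Share of genes (%) with an LDB1 peak in or within 10 kb (blue) and within 1 kb of a gene end (orange), for the HOX genes, all protein-coding genes and the other lists (n = genes). HOX genes (94.7 and 68.4%) and other ANTP homeobox genes (97.5 and 72.5%) stand above all protein-coding genes (70.1 and 37.6%).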

How the data were processed

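The authors deposited LDB1 peak positions and widths in bp, per the file headers, with no height, score or read total, so depth and its precision are unknown. The submitters' processing notes name hg38, Bowtie2 2.4.1 and MACS2 2.0.10. Parameters, the threshold, and whether IgG served as control, were not given in the sources used here. More depth or a looser threshold can give more and wider peaks.

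The 52765 of 53742 peaks on chromosomes 1 to 22 and X were used. Genes and promoter and microRNA sequences came from RefSeq tables of GRCh38.p14. They held all 38 genes. A further cluster gene is not reported here. Peak midpoints were counted in each gene with 10 kb to either side, within 1 kb of its ends, over each cluster and in consecutive windows of 100 kb. The counting was tested on simulated data. The background was the same count over all protein-coding genes. The members and lists were chosen with earlier results of these data known. All 38 genes were named. Of each other list the rule named the 3 genes with most peaks and up to 3 without, and the other microRNA genes were named after their values were seen. Distances, overlap, widest peaks, joined peaks and nearest genes were varied. Python 3.11.15, pandas 2.3.3 and matplotlib 3.10.9 were used.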

Additional observations from a re-analysis of the deposited data

How the results depend on the processing

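The number of HOX genes with a peak stayed within 1.5 times its value of 36 under every alternative run, from 28 with the widest 25% of peaks (34.9% of all protein-coding genes) to 38 at 20 kb (76.5%) and 50 kb (86.1%). Other values moved further. The median peaks per HOX gene was 1 in the gene body only, 2 at 2.5 kb, 7.5 at 20 kb, 14.5 at 50 kb, 1.5 with the widest 25% of peaks and 2 with each peak given to its nearest gene. Over all protein-coding genes the first 5 of these medians were 1, 1, 2, 3 and 0. The distinct peaks at HOX genes numbered 53 in the gene bodies, 57 with the widest 50% and 32 with the widest 25%. By cluster, the widest 50% left 16 in HOXA, 12 in HOXB and 9 in HOXC, and the widest 25% left 9, 2 and 5 there and 16 in HOXD. Those falls follow from the smaller number of peaks. With the widest 25%, 9 HOX genes had one at an end. With all peaks, 16 of the 20 genes with a listed start had a peak midpoint within 1 kb of such a start. That is a looser measure than a start inside a peak, which 9 genes had. The shares over all protein-coding genes were not counted for these settings, so neither count can be set against a background. Any overlap in place of the midpoint, and joining peaks 1 kb or less apart, moved no value by over 1.5 times. Just inside the limit of 10 kb lay a peak 9.98 kb from HOXD9, and just outside it one 10032 bp from HOXB8. No paired analysis was possible because there was 1 LDB1 library.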
